A study of Homo sapiens with 24 samples.

Results

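Messenger RNA was compared between temozolomide-resistant LN229-R glioma cells given the METTL3 inhibitor STM2457 and LN229-R cells given DMSO, its solvent. LN229-R is a derivative of the human glioblastoma line LN229 that is kept in temozolomide, the alkylating drug used against this tumour, and the labels do not say whether it is 1 clone. The 2 groups had 3 libraries each, 6 of the 24 libraries of a series that covers 4 lines, and they were chosen by the line and treatment that the deposited table names. STM2457 was given at 50 µM for 96 h, and the DMSO cells received the same volume of solvent. By their line name, both groups grew with 50 µM temozolomide in the medium. Whether replicates came from separate cultures is not stated, so that the spread behind each p-value may be only technical. LN229 cells under the same 2 treatments without temozolomide, and U87-R cells, the resistant derivative of the glioblastoma line U87 MG, with temozolomide, served for comparison, again with 3 libraries in each group.

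N6-methyladenosine (m6A) is a methyl mark on adenosines of messenger RNA. It is written by a complex in which METTL3 carries the catalytic activity, METTL14 helps to bind RNA and WTAP anchors the pair, and it is read by proteins of the YTH family, of which YTHDF2 promotes decay of marked messages. The mark is removed by FTO and ALKBH5. STM2457 occupies the pocket of METTL3 that binds the methyl donor, so it acts on the enzyme and need not change the level of METTL3 mRNA. In glioma cells m6A has been studied for its part in self-renewal and in resistance to temozolomide, a drug whose methylated guanines are reversed by MGMT and sensed by mismatch repair.

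Line names disagreed between the deposited tables. In the table of the parental against the resistant line, 6 of 6 columns lay closest to the like-numbered library of the other line name in the treatment tables, with an SD of the log2 differences of 0.0579 to 0.0619, against 0.346 to 0.406 for the library of the same name, over at least 11025 genes. The names of the treatment table are kept here. Which line a set of libraries belongs to is therefore uncertain, and with it its resistance and the temozolomide in its medium. That comparison covers DMSO libraries only, so the STM2457 libraries were set against them: 156 of 16511 genes had DMSO values of LN229-R and LN229 more than 1 apart on the log2 scale, and 154 of these differed in the same direction between the STM2457 libraries of the 2 names. The tables were normalized separately, and the comparison was added after the data were seen.

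Markers of the labelled cell type were mixed. VIM and NES, intermediate filaments of glial progenitors, were present, and SOX2, a stem cell factor, stood at 1187, 1027 and 1149.5 in STM2457 libraries, against 1379, 927 and 1298 in DMSO libraries, in the deposited unit of normalized counts. GFAP, the filament of astrocytes, was close to 0 in all but DMSO replicate 2, at 5.93, 6.24 and 3.08 in STM2457 libraries, against 5.58, 89.3 and 0.662 in DMSO libraries. SOX10, a factor of oligodendrocyte, Schwann and melanocyte lineages, was present in every library, at 45392, 53185 and 51942 in STM2457 libraries, against 43216, 48048 and 45045 in DMSO libraries, and its groups overlapped (log2 change 0.14, adjusted p = 0.531). Of the 10 glioma stem and astrocyte markers measured, 2 rose and 3 fell, with sums of 75620 to 112800 in STM2457 libraries and 119400 to 136900 in DMSO libraries. Most of these sums came from VIM and CD44, which differed in opposite directions. VIM stood at 48597, 24691 and 53138 in STM2457 libraries, against 69428, 61255 and 80949 in DMSO libraries, and was not among the 3 that fell. OLIG2, a factor of glial progenitors, stood at 315, 253 and 262 in STM2457 libraries, against 913, 981 and 846 in DMSO libraries (log2 change -1.72 ± 0.14), and the adhesion receptor CD44, a mesenchymal glioma marker, at 42534, 36566 and 38334 in STM2457 libraries, against 15484, 11489.8 and 14013 in DMSO libraries (log2 change 1.53 ± 0.16). The calcium-binding S100B and the lipid carrier FABP7 fell (log2 change -1.94 and -1.71). POU3F2, the other riser of this list, stood at 1212, 1118 and 1392 in STM2457 libraries, against 686, 434 and 700 in DMSO libraries. Of the 7 myeloid markers none reached a mean of 10, with sums of 2.71 to 17.5 in STM2457 libraries and 6.69 to 11.4 in DMSO libraries. Of 4 epithelial markers KRT14 alone did, at 0.614, 0 and 8.88 in STM2457 libraries, against 56.9, 6.10 and 80.5 in DMSO libraries. Endothelial markers summed to 170.8 to 193.2 in STM2457 libraries and 56.3 to 105.6 in DMSO libraries, with KDR at 98.3, 68.4 and 95.9 in STM2457 libraries, against 19.3, 7.22 and 9.52 in DMSO libraries. The part of these markers in the results was not tested.

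STM2457 changed a large share of the transcriptome. Of 17063 genes with a mean of at least 10 normalized counts, 6591 (38.6%) passed an adjusted p of 0.05 in limma, a linear model fitted to all genes on log2(normalized count + 1), 3674 of them higher (21.5%) and 2917 lower (17.1%) in STM2457 libraries. The 6 values did not overlap between groups in 53.1% of genes. In the text, a gene rose or fell only where it passed. Like-numbered libraries of the groups deviated together, and with the replicate number as a block 8444 genes (49.5%) passed. With the block 25.8% of all genes were higher and 23.7% lower. Counts of the gene lists below are to be read beside these shares of all genes. Without DMSO replicate 3 the count was 4364, with 1667 genes lower.

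After the authors' normalization the libraries summed to 26970874 to 28716587 normalized counts, and they correlated at 0.968 to 0.988 within groups and at 0.913 to 0.935 between groups. Replicate 2 stood apart in both groups. DMSO replicate 2 gave 4.61% of its counts to cytosolic ribosomal protein genes, against 2.83 and 3.01% in the other DMSO libraries, and STM2457 libraries gave 2.64, 2.18 and 2.60%. Without replicate 2 of both groups 8336 genes passed, and without DMSO replicate 2 alone 6230. In these bulk cultures, fewer cells of a type and less RNA per cell cannot be told apart.

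**Figure D1:**
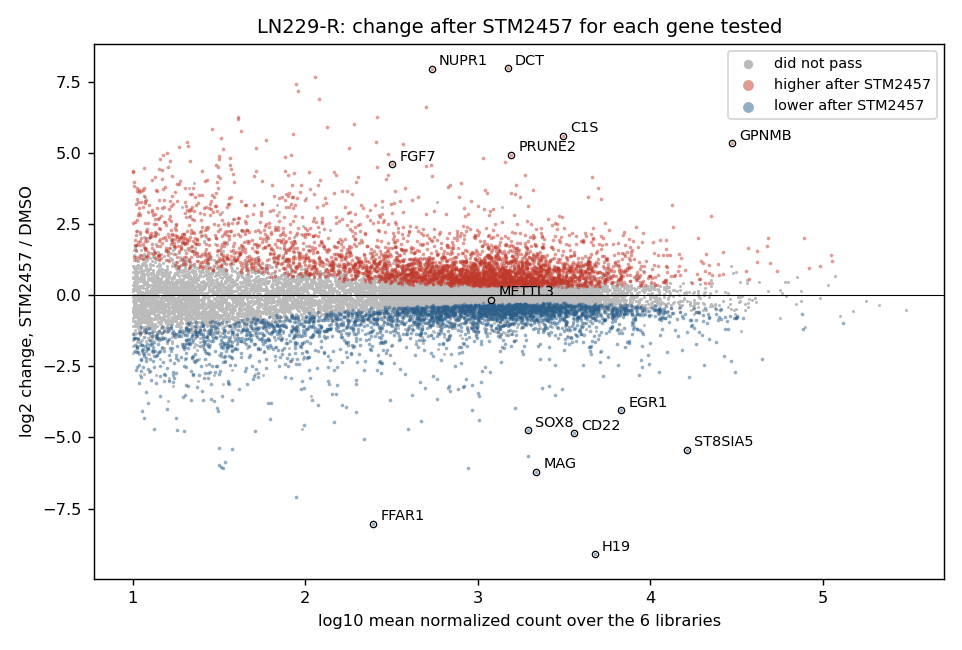
Log2 change of STM2457 over DMSO (vertical) against the log10 mean normalized count of the 6 LN229-R libraries (horizontal) for each of the 17063 genes tested, coloured by whether the gene was higher, lower or did not pass. DCT and NUPR1 stand near the top, H19 and FFAR1 at the bottom, GPNMB combines a high level with a change of 5.34, and METTL3 lies near 0.

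The mRNA of the inhibited enzyme did not pass. METTL3 stood at 1193, 1002 and 1191 in STM2457 libraries, against 1237, 1244 and 1283 in DMSO libraries (log2 change -0.16 ± 0.11, SE; adjusted p = 0.29), with every STM2457 library below every DMSO library. METTL14 overlapped between groups, at 1365, 791 and 766 in STM2457 libraries, against 863, 688 and 996 in DMSO libraries (adjusted p = 0.622). Of the 12 writer genes measured, 4 rose and 0 fell, where 21.5% of all genes rose and 17.1% fell. Their median log2 change was 0.16, against -0.02 over all genes tested, and ran from 0.09 without STM2457 replicate 1 to 0.26 without DMSO replicate 1. The first 3 risers named here are partners of the core pair. WTAP stood at 1803, 1917 and 1990.4 in STM2457 libraries, against 1253, 1123 and 1233 in DMSO libraries, a change of 0.66 ± 0.10 (adjusted p = 0.00189). RBM15 and RBM15B, which carry the complex to its targets, rose by 0.78 and 0.77 on the log2 scale, and METTL16, a separate methyltransferase for U6 RNA and the MAT2A message, by 0.45.

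Readers moved in both directions. YTHDF2 rose to 7489, 6619 and 7428 in STM2457 libraries, against 4564, 4038 and 4106 in DMSO libraries, a log2 change of 0.76 ± 0.11. YTHDF1, a reader linked to translation, rose by 0.55 and the nuclear reader YTHDC1 by 0.33, a call lost whenever 1 library other than DMSO replicate 1 was left out. IGF2BP2, which stabilizes bound messages, fell (log2 change -0.82), as did RBMX (-0.86). Of the 14 erasers and readers measured, 5 rose and 2 fell, where 21.5% of all genes rose and 17.1% fell. With the replicate block 7 rose and 5 fell, without replicate 2 of both groups 7 rose and 7 fell, and without DMSO replicate 3, STM2457 replicate 1 or STM2457 replicate 3, 2 rose and 2 fell. FTO and ALKBH5 rose by 0.36 and 0.28 (adjusted p = 0.0358 and 0.0477). Those calls were weak, since ALKBH5 lost its call whichever of the 6 libraries was left out, and FTO whenever 1 library other than STM2457 replicate 2 was left out.

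The 15 largest rises ran from 4.54 to 7.97 on the log2 scale. DCT, the melanin enzyme dopachrome tautomerase, stood at 3328, 3532 and 2057 in STM2457 libraries, against 19.1, 8.35 and 7.15 in DMSO libraries (log2 change 7.97 ± 0.37, adjusted p = 2.05e-05). NUPR1, a chromatin regulator induced by amino acid and endoplasmic reticulum stress, stood at 548, 1805 and 876 in STM2457 libraries, against 2.14, 10.5 and 0.558 in DMSO libraries (log2 change 7.96 ± 0.73). For both, the STM2457 and DMSO values were far apart and did not overlap. GPNMB, a glycoprotein of lysosomes and melanosomes, stood at 64337, 44913 and 65541 in STM2457 libraries, against 1524, 1080.0 and 1728 in DMSO libraries (log2 change 5.34 ± 0.21, adjusted p = 1.25e-05). It combined a large change with replicates that lay close together.

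Other genes among the 15 largest rises had varied roles. C1S, a protease of the classical complement pathway, stood at 3619, 10458 and 4191 in STM2457 libraries, against 111, 162 and 74.5 in DMSO libraries, highest in STM2457 replicate 2. ACP5, the tartrate-resistant acid phosphatase of lysosomes, stood at 2964, 2377 and 3008 in STM2457 libraries, against 82.9, 118 and 122 in DMSO libraries (log2 change 4.69 ± 0.18). CAPN3, a calcium-dependent protease, stood at 1856, 2409 and 1910.0 in STM2457 libraries, against 47.4, 105 and 72.3 in DMSO libraries. FGF7, a secreted growth factor for epithelial cells, rose by 4.60, the adaptor FYB1 by 5.39, the calcium-binding NECAB2 by 6.88 and RENBP, which acts in amino sugar metabolism, by 4.57. FAM167B stood at 435, 322 and 372 in STM2457 libraries, against 2.82, 13.4 and 2.67 in DMSO libraries. PHACTR1, a regulator of actin, and PRUNE2 rose by 5.32 and 4.94.

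A pair of these rises rested on few libraries. UTP14C, an intronless copy of a ribosome assembly gene, was listed at 0 in DMSO replicates 1 and 3 and at 205 in DMSO replicate 2, with 376, 528 and 461 in STM2457 libraries. Its call was lost whenever 1 library other than DMSO replicate 2 was left out, and reads of its parent gene UTP14A may be shared with it. IFI44L, an interferon-induced gene, stood at 123, 2779 and 75.8 in STM2457 libraries, against 9.48, 17.3 and 10.01 in DMSO libraries, so that STM2457 replicate 2 lay far above the rest, and its call was lost without DMSO replicate 1 or 3.

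**Figure D2:**
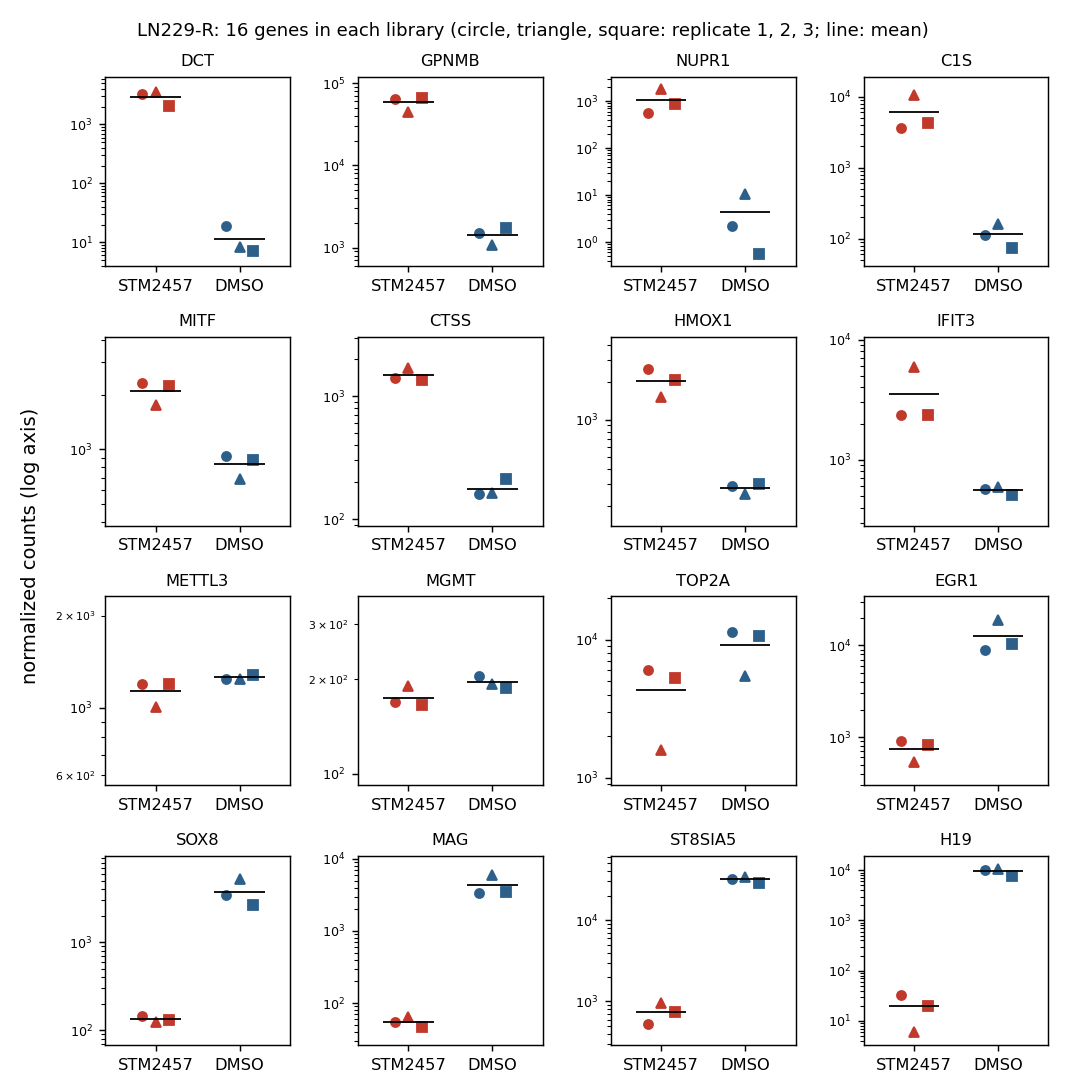
Normalized counts (vertical, log axis) of 16 genes in the 3 STM2457 and 3 DMSO libraries of LN229-R, with symbols for the replicate number and a line at the group mean. DCT, GPNMB, NUPR1 and C1S separate the groups upward, EGR1, SOX8, MAG, ST8SIA5 and H19 downward, METTL3 and MGMT lie close together in both, and TOP2A is lowest in replicate 2 of each group.

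Most lysosomal genes measured rose. Lysosomes are acid organelles that break down proteins, lipids and glycans, and the related factors TFEB, TFE3 and MITF drive their genes. Rag GTPases and folliculin direct the phosphorylation that keeps TFEB and TFE3 in the cytosol. Of 53 lysosomal hydrolases and membrane proteins measured, 34 rose and 2 fell, with a median log2 change of 0.75. Cathepsin S (CTSS) stood at 1402, 1693 and 1368 in STM2457 libraries, against 159, 161 and 210.5 in DMSO libraries (log2 change 3.07 ± 0.16, adjusted p = 3.32e-05). NAGLU, which degrades heparan sulfate, stood at 9934, 12556 and 11359 in STM2457 libraries, against 2358, 2991 and 2449 in DMSO libraries (log2 change 2.12 ± 0.14). The groups of both genes were far apart.

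Other members with low adjusted p were enzymes and carriers of glycan and lipid breakdown. Sialidase NEU1 rose by 1.94, the cholesterol exporter NPC1 by 1.87 and acid ceramidase ASAH1 by 1.81. Cathepsin D (CTSD), an abundant aspartyl protease, stood at 54333, 59229 and 52797 in STM2457 libraries, against 15089.5, 22487 and 16108 in DMSO libraries (log2 change 1.65 ± 0.19). CTSO and SCARB2, the receptor that carries glucocerebrosidase, fell (log2 change -0.63 and -0.88), and LAMP1, a major membrane protein of lysosomes, did not pass (0.18, adjusted p = 0.245). The proton pump that acidifies the organelle followed, with 10 of 22 subunits measured higher and 0 lower (median 0.36). ATP6V0E1 stood at 7316, 7712 and 7007 in STM2457 libraries, against 1459, 1936 and 1638 in DMSO libraries (log2 change 2.14 ± 0.13).

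The factors and GTPases upstream moved unequally. MITF stood at 2299, 1746 and 2221 in STM2457 libraries, against 926, 689.9 and 873 in DMSO libraries (log2 change 1.33 ± 0.16, adjusted p = 0.000592), with all STM2457 values above all DMSO values. TFE3 did not pass (log2 change 0.11, adjusted p = 0.442), nor did TFEB (0.38, adjusted p = 0.158), which passed with the replicate block. RRAGD and RRAGC, small GTPases that recruit these factors to lysosomes, rose by 2.08 and 1.39, and folliculin (FLCN) with its partner FNIP1 by 1.30 and 1.14. Of 15 such genes measured, 9 rose and 0 fell (median 0.45).

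Promoters of this group are shown because the TFEB family binds E-boxes of the letters CACGTG, a palindrome searched on both strands. RefSeq windows from 250 bases before to 50 bases after annotated starts (GRCh38.p14) were searched. CACGTG was present in 14 of 54 windows of the lysosomal list (25.9%), in 5 of 22 windows of the proton pump (22.7%) and in 5 of 22 windows of the factors and GTPases (22.7%), against 7.26% of all 35093 windows. For genes that rose, the counts were 8 of 28, 3 of 9 and 4 of 9 windows, against 10.8% over all genes that rose. A match is a description of the letters, not evidence of binding, and the motifs were chosen after the values were seen. The stretches below hold the E-box in capitals, 5′ to 3′ along the gene, for the sialidase NEU1 (chr6:31862917-31862972 on the minus strand), cathepsin D (chr11:1763944-1763999 on the minus strand), RRAGC (chr1:38859854-38859909 on the minus strand) and FNIP1 (chr5:131797081-131797136 on the minus strand).
NEU1: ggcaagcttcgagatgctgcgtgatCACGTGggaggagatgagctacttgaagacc
CTSD: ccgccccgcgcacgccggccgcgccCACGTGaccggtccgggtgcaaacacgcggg
RRAGC: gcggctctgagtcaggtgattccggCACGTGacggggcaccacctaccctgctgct
FNIP1: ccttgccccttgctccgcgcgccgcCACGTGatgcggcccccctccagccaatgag

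Melanosome genes, which share MITF control with melanocytes, were measured in part. Of 7 members measured, 5 rose and 0 fell. MLPH, the adaptor that moves melanosomes along actin, stood at 3207, 3311 and 3081 in STM2457 libraries, against 279, 268 and 344 in DMSO libraries (log2 change 3.43 ± 0.13, adjusted p = 1.12e-05). RAB27A, its GTPase partner, rose by 0.77, and MREG by 0.64, a call lost whenever 1 library other than STM2457 replicate 2 was left out. The pigment genes TYR and MLANA were low, TYR at 16.8, 9.92 and 7.86 in STM2457 libraries and listed at 0 in all DMSO libraries, and the fibril protein PMEL did not pass. Of 7 melanocyte markers, 4 were measured, with sums of 51090 to 58540 in STM2457 libraries and 44200 to 48800 in DMSO libraries, most of it SOX10.

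Autophagy genes, which feed cargo to lysosomes, had 9 of 32 measured higher and 2 lower, where 21.5% of all genes were higher and 17.1% lower. Their median of 0.01 changed sign when single libraries were left out. SQSTM1, the cargo receptor p62, stood at 28189, 33464 and 29238 in STM2457 libraries, against 7097, 7976 and 7618 in DMSO libraries (log2 change 2.00 ± 0.13). WIPI1, which marks early autophagic membranes, and the receptor OPTN rose by 1.70 and 1.27. Neither fall was firm: ATG2B changed by -0.68 and lost its call without DMSO replicate 1, DMSO replicate 3 or STM2457 replicate 3, and ATG2A (-0.40) lost it when any 1 library other than STM2457 replicate 1 was left out.

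The largest fall was in H19, an imprinted long noncoding RNA that also hosts a microRNA. It stood at 32.9, 5.96 and 19.5 in STM2457 libraries, against 10153, 10627 and 7651 in DMSO libraries (log2 change -9.12 ± 0.50, adjusted p = 3.43e-05). Every DMSO library was far above every STM2457 library. ST8SIA5, a sialyltransferase that builds gangliosides, stood at 527, 966 and 746 in STM2457 libraries, against 32178, 34030.4 and 28884 in DMSO libraries (log2 change -5.45 ± 0.21). Its level under DMSO was even across replicates.

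The 15 largest falls included genes of glial cells. MAG, a glycoprotein of the myelin sheath, stood at 54.7, 64.1 and 47.2 in STM2457 libraries, against 3321, 6071 and 3483 in DMSO libraries (log2 change -6.21 ± 0.24, adjusted p = 1.19e-05). SOX8, a factor related to SOX10 in glial development, stood at 146, 123 and 130.04 in STM2457 libraries, against 3405, 5255 and 2611 in DMSO libraries (log2 change -4.75 ± 0.24). Neither gene overlapped between groups. Of the 5 oligodendrocyte markers measured, MAG was the 1 that fell. CNP, another of them, passed with a rise of 0.37, a call lost whichever of the 6 libraries was left out.

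The rest of the 15 falls included EGR1, an immediate early factor, at 898, 538 and 813 in STM2457 libraries, against 9004, 19014 and 10310.5 in DMSO libraries. KCNA2, a voltage-gated potassium channel, stood at 21.01, 24.9 and 28.96 in STM2457 libraries, against 1987, 1771 and 1449 in DMSO libraries, and lipoprotein lipase LPL at 116, 100.3 and 103 in STM2457 libraries, against 1891, 1552 and 1811 in DMSO libraries. The groups of all 3 genes were far apart. Log2 changes were -4.41 for BMP6, a secreted factor of the BMP family, -4.40 for the BMP antagonist MGP, -4.12 for the aggrecan-cleaving protease ADAMTS4, -4.48 for the vesicle protein SYT12 and -5.06 for FAM131B. CD22, a lectin best known from B cells, stood at 195, 338 and 169 in STM2457 libraries, against 5349, 10887 and 4704 in DMSO libraries. FFAR1, a receptor for long-chain fatty acids, stood at 0, 3.76 and 0 in STM2457 libraries, against 375, 833 and 271 in DMSO libraries. Neither gene overlapped between groups.

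MAG, CD22 and FFAR1 are neighbours on chromosome 19 (GRCh38, GENCODE 29). The genes tested within 300 kb of them numbered 23 and together spanned chr19:34994784-35644871. Of these, 17 fell (73.9%, against 17.1% of all genes tested) and 0 rose, with a median log2 change of -1.57. The counts and the median include MAG, CD22 and FFAR1 themselves, which were picked for their falls. The window was picked after these values were seen, so the count is a description. LGI4, a secreted protein needed for peripheral myelin, stood at 84.3, 169 and 117 in STM2457 libraries, against 896, 1815 and 961 in DMSO libraries. LSR, a lipoprotein receptor, and FXYD1, a regulator of the sodium pump, fell as well (log2 change -2.07 and -2.35). USF2, a widely expressed factor and the nearest tested gene before MAG, did not pass (log2 change -0.10, adjusted p = 0.583). TMEM147 did not either (0.17, adjusted p = 0.264). Some members overlap others or lie antisense to them, and use of strand in the counting is not given in the sources used here.

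**Figure D3:**
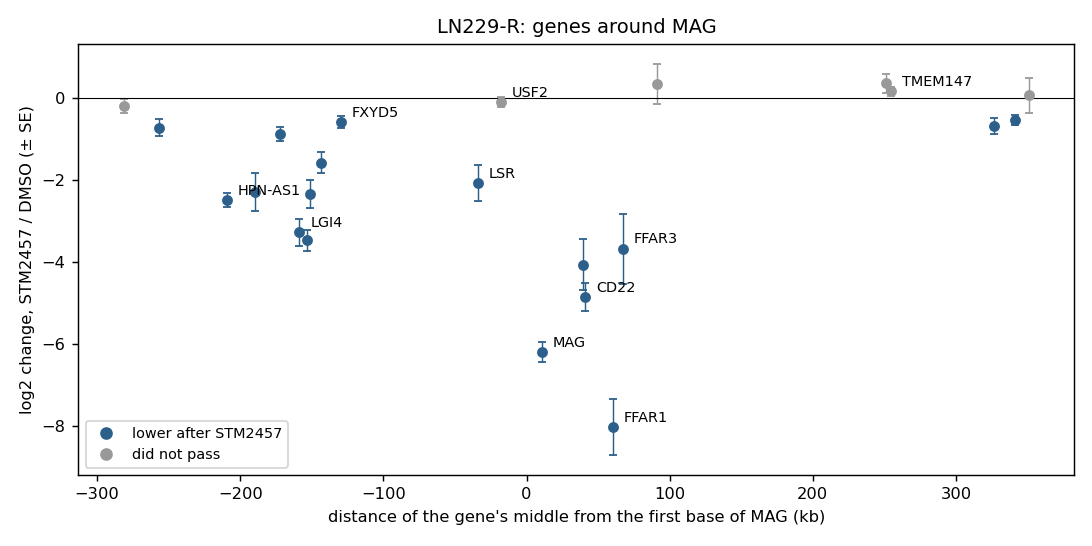
Log2 change of STM2457 over DMSO with its SE (vertical) for the 23 genes tested around MAG, by distance of each gene's middle from the first base of MAG in kb (horizontal). FFAR1, MAG and CD22 lie lowest, 17 genes are lower after STM2457, and USF2, the nearest tested gene before MAG, lies near 0.

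Many interferon-stimulated genes rose. Type I interferon acts through its receptor and JAK kinases on genes that restrict viruses and sense foreign RNA. Of 42 measured, 26 rose and 0 fell, with a median log2 change of 1.55. IFIT3, which binds viral RNA complexes, stood at 2350.2, 5860.5 and 2338 in STM2457 libraries, against 577, 592 and 510.2 in DMSO libraries (log2 change 2.51 ± 0.33, adjusted p = 0.000938). IFIH1, the sensor MDA5, stood at 953, 1563 and 867 in STM2457 libraries, against 327, 479.8 and 419 in DMSO libraries (log2 change 1.43 ± 0.24). ISG20, an exonuclease, and TRIM21, a cytosolic antibody receptor, rose by 2.07 and 2.20, and SAMD9L by 1.57.

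STM2457 replicate 2 was the highest library for this list. The median member stood 1.12, 2.53 and 0.99 above the DMSO mean on the log2 scale in STM2457 replicates 1, 2 and 3, and -0.01, 0.07 and -0.02 in the DMSO libraries. ISG15, a ubiquitin-like modifier, shows this spread, at 291, 3307 and 317 in STM2457 libraries, against 44.5, 44.7 and 51.8 in DMSO libraries. The count of risen genes was 15 without DMSO replicate 1 and 17 without DMSO replicate 3. Without STM2457 replicate 2 it was 27 with a median of 1.02, and without replicate 2 of both groups it was 30 with a median of 1.05.

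Antigen presentation genes were also highest in STM2457 replicate 2, with list medians of 0.64, 1.45 and 0.74 above the DMSO mean in STM2457 replicates 1, 2 and 3. Of 18 genes of MHC class I presentation measured, 13 rose and 1 fell (median 0.99). HLA-E, a nonclassical class I molecule, stood at 9086, 15094 and 9691 in STM2457 libraries, against 3826, 4979 and 3848 in DMSO libraries (log2 change 1.39 ± 0.21), and NLRC5, the activator of class I genes, at 424, 662 and 505 in STM2457 libraries, against 126, 110.2 and 108 in DMSO libraries (log2 change 2.18 ± 0.20). TAP2, a peptide transporter, rose by 1.01, and the trimming peptidases ERAP1 and ERAP2 by 0.97 and 0.54. Calreticulin (CALR), which helps to fold these molecules, fell (log2 change -0.78). Class I genes are near-identical copies of each other, so reads may be shared among them. Without DMSO replicate 1, and likewise without DMSO replicate 3, 5 rose and 1 fell.

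Of 22 inflammatory genes measured, 11 rose and 1 fell (median 0.78). CSF1, the macrophage growth factor, stood at 2586, 2531 and 2717 in STM2457 libraries, against 589.96, 562 and 517 in DMSO libraries (log2 change 2.23 ± 0.10, adjusted p = 2.05e-05). The adhesion molecule ICAM1 and the NF-kB subunit RELB rose by 2.18 and 1.48, and NFKBIA, the inhibitor of NF-kB, by 1.23. The cytokine IL24 stood at 23.4, 35.4 and 24.8 in STM2457 libraries, against 1.13, 2.33 and 4.27 in DMSO libraries. LIF fell (log2 change -1.09), a call lost without DMSO replicate 1 or 3.

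Promoters of the interferon list are shown because of the response element bound by factors that interferon activates. The letters GAAA, any 2 bases and GAAA again, searched on both strands, were in 27 of 43 windows of the list (62.8%), against 3.58% of all windows. For members that rose they were in 14 of 24 windows (58.3%), a share no higher than in the whole list, against 3.61% over all genes that rose. The element is in capitals for ISG20 (chr15:88638922-88638981 on the plus strand) and, as its reverse complement, for IFIT3 (chr10:89327850-89327909 on the plus strand).
ISG20: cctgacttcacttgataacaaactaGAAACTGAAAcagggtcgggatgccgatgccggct
IFIT3: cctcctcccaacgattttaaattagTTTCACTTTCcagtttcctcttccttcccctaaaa

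Most antioxidant genes measured rose. NRF2, encoded by NFE2L2 and held back by KEAP1, drives glutathione, thioredoxin and NADPH supply. Of 29 target genes measured, 24 rose and 0 fell, with a median of 1.02. OSGIN1, an oxidative stress-induced growth inhibitor, stood at 2957, 2499 and 3588 in STM2457 libraries, against 247, 234 and 273 in DMSO libraries (log2 change 3.57 ± 0.15, adjusted p = 1.66e-05). Heme oxygenase HMOX1 stood at 2574, 1524 and 2061 in STM2457 libraries, against 289, 252 and 304 in DMSO libraries (log2 change 2.83 ± 0.19). Sulfiredoxin SRXN1, epoxide hydrolase EPHX1 and thioredoxin reductase TXNRD1 rose by 2.17, 1.81 and 1.43. The replicates of each group lay close together in this list, with medians of 0.95, 1.12 and 1.11 above the DMSO mean in STM2457 libraries. The classical target NQO1, at 27999, 20585 and 31193 in STM2457 libraries, against 18087, 18909.5 and 17957 in DMSO libraries, did not pass (adjusted p = 0.05 when rounded, above the threshold), though its groups did not overlap.

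The antioxidant response element was searched as TGACNNNGC on both strands and was found in 10 of 36 windows of the list (27.8%), against 13.4% of all windows. For members that rose, the element was found in 7 of 26 windows (26.9%), against 15.45% over all genes that rose. It is in capitals for EPHX1 (chr1:225825251-225825309 on the plus strand) and TXNRD1 (chr12:104215655-104215713 on the plus strand).
EPHX1: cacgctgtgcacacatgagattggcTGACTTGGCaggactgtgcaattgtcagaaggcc
TXNRD1: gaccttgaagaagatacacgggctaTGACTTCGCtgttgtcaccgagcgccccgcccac

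Amino acid stress and endoplasmic reticulum folding genes parted. ATF4 raises amino acid uptake and synthesis when translation initiation is restrained. Of its 33 targets measured, 15 rose and 2 fell. The median was 0.63, or 0.38 without STM2457 replicate 2, and the list stood 0.37, 1.00 and 0.37 above the DMSO mean in STM2457 replicates 1, 2 and 3. ATF3, a stress factor, stood at 2239, 2399 and 1932 in STM2457 libraries, against 319, 278 and 216 in DMSO libraries (log2 change 3.02 ± 0.17, adjusted p = 3.43e-05). The amino acid transporter subunits SLC7A5 and SLC3A2 rose by 2.77 and 1.94, and the partner factor CEBPG by 1.73. PYCR1 and ALDH18A1, enzymes of proline synthesis, fell (log2 change -1.03 and -0.42), the second call being lost without DMSO replicate 1 or STM2457 replicate 3.

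Of 25 genes of the unfolded protein response, in contrast, 1 rose and 10 fell (median -0.32). HSP90B1, the chaperone GRP94, stood at 14947, 17624 and 13909.8 in STM2457 libraries, against 70542, 82714 and 64973 in DMSO libraries (log2 change -2.23 ± 0.17). HYOU1, a chaperone of the same compartment, stood at 3347, 3903 and 3518 in STM2457 libraries, against 11140.2, 12673 and 10642 in DMSO libraries (log2 change -1.68 ± 0.12). CRELD2, MANF and the coat protein SEC24D fell as well (log2 change -1.60, -1.42 and -0.91). DNAJB9, a co-chaperone induced by the IRE1 branch, was the riser (0.77). Without replicate 2 of both groups 17 fell.

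Most sterol genes measured rose. SREBP2 induces the enzymes of cholesterol synthesis when sterols in the endoplasmic reticulum are low. Of 24 measured, 19 rose and 0 fell (median 0.82). Lanosterol synthase LSS stood at 10029, 10243 and 10279.5 in STM2457 libraries, against 2702, 2728 and 3081 in DMSO libraries (log2 change 1.85 ± 0.10, adjusted p = 3.45e-05). INSIG1, which retains SREBP2 in the endoplasmic reticulum, stood at 17237, 13810.4 and 17809 in STM2457 libraries, against 4855, 3981 and 4494 in DMSO libraries (log2 change 1.87 ± 0.14). DHCR7 and SC5D, late enzymes of the pathway, rose by 1.62 and 1.27. Of 17 fatty acid genes 6 rose and 1 fell. The desaturase SCD and the acyl-CoA ligase ACSL1 rose by 1.55 and 1.58, and acetyl-CoA synthetase ACSS2 fell (log2 change -1.29). The letters TCACNCCAC of a sterol element, searched on both strands, were in 1 of 23 promoter windows of the cholesterol list (4.35%), against 1.13% of all windows, and in 0 of 19 windows of the cholesterol genes that rose.

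**Figure D4:**
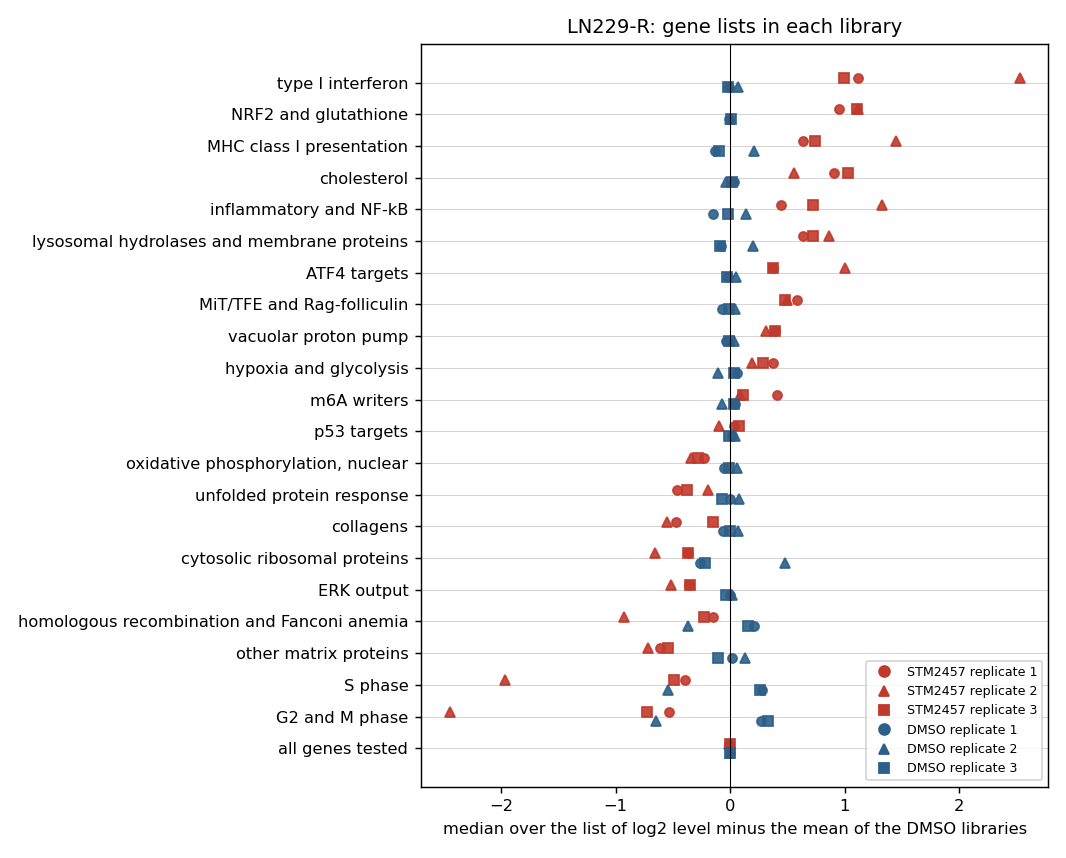
Median over the members of each gene list of the log2 level minus the mean of the DMSO libraries (horizontal), with STM2457 libraries above DMSO libraries in each row and symbols for the replicate number. The interferon list reaches 2.53 in STM2457 replicate 2, the NRF2 list lies between 0.95 and 1.12 in all STM2457 libraries, and replicate 2 of both groups is the lowest of its group in S phase, G2 and M phase and homologous recombination.

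Counts of fallen cell cycle genes depended on the fit, and replicate 2 was the lowest library of both groups. Of 35 genes of G2 and M phase, 6 fell and 0 rose, a share at the 17.1% of all genes that fell. Passed or not, all 35 had a log2 change below 0, against 8801 of the 17063 genes tested. With the replicate block 34 fell, where 23.7% of all genes did, and without replicate 2 of both groups 34 fell. The median was -1.25, or -0.61 without STM2457 replicate 2. CDC20, which activates the anaphase-promoting complex, stood at 1201, 309 and 1088 in STM2457 libraries, against 2768, 1433 and 2963 in DMSO libraries (log2 change -1.62 ± 0.51, adjusted p = 0.0375). NUSAP1, a spindle protein, stood at 2152, 619 and 2153 in STM2457 libraries, against 6005, 2824 and 5567 in DMSO libraries (log2 change -1.68 ± 0.50). In each pair of like-numbered libraries the STM2457 value was the lower one for both genes. CCNB2, NDC80 and KIF20A fell as well (log2 change -1.43, -1.59 and -1.50). Topoisomerase TOP2A did not pass in the unblocked fit, at 6051, 1594 and 5318 in STM2457 libraries, against 11392, 5485 and 10600.3 in DMSO libraries (adjusted p = 0.0857).

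Against the DMSO mean the list medians were -0.53, -2.45 and -0.73 in STM2457 replicates 1, 2 and 3, and 0.27, -0.65 and 0.33 in the DMSO libraries, so that DMSO replicate 2 lay between STM2457 replicates 1 and 3. Within like-numbered pairs the median differences were -0.88, -1.83 and -1.06. The count of fallen genes was 0 without DMSO replicate 1 and 0 without DMSO replicate 3 in limma, each with 4 genes at an unadjusted p under 0.05. It was 15 without DMSO replicate 2 and 16 without STM2457 replicate 1. Over all genes, 7183 of 17081 without DMSO replicate 1 and 6831 of 17064 without DMSO replicate 3 had an unadjusted p under 0.05.

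Of 35 S phase genes 8 fell and 0 rose, near the 17.1% of all genes that fell, and with the block 27 fell and 1 rose, where 23.7% of all genes fell. Passed or not, 31 of the 35 had a log2 change below 0, against 8801 of the 17063 genes tested. The median was -1.02, or -0.50 without STM2457 replicate 2. MCM7, a subunit of the replicative helicase, stood at 3181, 1061 and 2911 in STM2457 libraries, against 6236, 4378 and 6050.3 in DMSO libraries (log2 change -1.36 ± 0.39). The polymerase subunits POLA1 and POLE, the clamp loader RFC4 and the glycosylase UNG fell as well (log2 change -1.02, -1.14, -0.83 and -0.93). In limma 0 fell without DMSO replicate 1 and 0 without DMSO replicate 3. At an unadjusted p under 0.05 there were 4 and 6 genes, to be read beside the counts over all genes given above. The count of fallen S phase genes was 13 without DMSO replicate 2 and 27 without replicate 2 of both groups. Of 11 measured D-type cyclins, kinases and inhibitors, 2 fell, near the 17.1% of all genes. These were CDKN1A, the p21 inhibitor, at 3160.3, 1841 and 2787 in STM2457 libraries, against 4181, 3934 and 3453 in DMSO libraries, and RB1, at 1519, 1416 and 1604 in STM2457 libraries, against 2529, 1789 and 2115 in DMSO libraries. CDKN1A lost its call without DMSO replicate 1, 2 or 3 or STM2457 replicate 3, and RB1 whenever 1 library other than DMSO replicate 2 was left out. With the block 5 of these 11 genes fell. Of 50 replication-dependent histone genes in the list, 21 reached the mean of 10 and 10 a mean of 50. Of the 21 measured, 2 rose and 3 fell, where 21.5% of all genes rose and 17.1% fell. Polyadenylated RNA was sequenced, and the part of that selection in the histone values was not tested. The count of risen histone genes was 0 when DMSO replicate 1, 2 or 3 or STM2457 replicate 2 was left out.

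Targets of p53 did not move as a group. Of 28 measured, 5 rose and 8 fell, where 21.5% of all genes rose and 17.1% fell. GDF15, a secreted stress factor that ATF4 also induces, stood at 2215, 5305 and 1889 in STM2457 libraries, against 152, 312 and 143 in DMSO libraries (log2 change 3.89 ± 0.43). TP53INP1, BTG2, TIGAR and BAX rose by 1.19, 0.91, 0.87 and 0.53. MDM2, the ligase that degrades p53, stood at 3531, 3144 and 3301 in STM2457 libraries, against 6092, 4809 and 5794 in DMSO libraries (log2 change -0.74 ± 0.12). ZMAT3, GADD45A, PLK2 and DDB2 fell too (log2 change -1.20, -1.26, -1.13 and -0.81).

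Genes known to set the response to temozolomide were examined next. MGMT, which removes the methyl group from guanine, overlapped between groups, at 169, 190.5 and 165 in STM2457 libraries, against 205, 194 and 188 in DMSO libraries (log2 change -0.16 ± 0.16, adjusted p = 0.455). The 95% interval of its log2 change ran from -0.53 to 0.21. MSH6 and PMS2 of mismatch repair did not pass (adjusted p = 0.662 and 0.768). Of 8 mismatch repair genes 3 fell. MSH3, which recognises larger loops, stood at 355, 293 and 356 in STM2457 libraries, against 608, 564 and 613 in DMSO libraries (log2 change -0.83 ± 0.14), and its groups did not overlap. Without DMSO replicate 1, and likewise without DMSO replicate 3, 1 of the 8 fell.

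Base excision repair, which clears the other methylated bases, had 9 of 22 genes lower and 2 higher (median -0.32), or 6 lower and 1 higher without DMSO replicate 3. The glycosylases MUTYH, MPG and TDG, and PARP2 fell (log2 change -0.95, -0.71, -0.77 and -1.20), while APEX2 and POLB rose by 1.00 and 0.57. POLB lost its call without DMSO replicate 3 or STM2457 replicate 3. Of 30 genes of homologous recombination and the Fanconi anemia pathway, 5 fell and 1 rose, where 17.1% of all genes fell and 21.5% rose. With the block 16 fell and 2 rose, where 23.7% of all genes fell, and 2 fell and 1 rose without the library DMSO replicate 3. FANCL, the ubiquitin ligase of the pathway, stood at 1359.9, 1357 and 1524 in STM2457 libraries, against 3564, 4378 and 3367 in DMSO libraries (log2 change -1.41 ± 0.13), and FANCF at 1132, 1051 and 1107 in STM2457 libraries, against 474, 486 and 468 in DMSO libraries (log2 change 1.20 ± 0.11). RAD54L and RAD51AP1 fell too (log2 change -1.18 and -1.37) and were lowest in replicate 2 of both groups, and both calls were lost without DMSO replicate 1 or 3.

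ABC transporter genes, not all of them drug exporters, rose in 8 of 12 measured and fell in 2 (median 0.72). Over all genes 21.5% rose and 17.1% fell. Without DMSO replicate 3, 6 rose and 0 fell. ABCC3, which exports conjugates and is also in the NRF2 list, stood at 509.99, 502 and 549 in STM2457 libraries, against 129, 72.3 and 189.5 in DMSO libraries (log2 change 2.09 ± 0.32). The cholesterol exporter ABCA1 and the transporters ABCA3, ABCA7 and ABCC1 rose by 1.11, 1.06, 0.85 and 0.58. ABCG2, an exporter of many drugs, fell, at 21.9, 9.81 and 35.1 in STM2457 libraries, against 77.8, 48.1 and 79.01 in DMSO libraries, a call lost without DMSO replicate 1 or 3.

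Ribosomal protein genes fell in 20 of 79 and rose in 0 (median -0.46), where 17.1% of all genes fell and 21.5% rose. The count of falls depended on single libraries. Leaving out 1 library other than DMSO replicate 2 gave 5 to 13 falls. RPS2 of the small subunit stood at 16439, 11231 and 15278 in STM2457 libraries, against 23563, 36134 and 25375 in DMSO libraries, and RPL12 of the large subunit at 4161, 3331 and 3933 in STM2457 libraries, against 5759.7, 9676 and 6007 in DMSO libraries. Both were highest in DMSO replicate 2. Like-numbered pairs had median differences of -0.10, -1.15 and -0.15. Without DMSO replicate 2, 11 fell and 2 rose with a median of -0.21, and without replicate 2 of both groups 27 fell and 6 rose with a median of -0.11.

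Nuclear genes of oxidative phosphorylation fell in 28 of 76 and rose in 2 (median -0.27). ATP5PO, a stalk subunit of ATP synthase, stood at 1748, 1308 and 1565 in STM2457 libraries, against 2716, 2942 and 2821 in DMSO libraries (log2 change -0.88 ± 0.13), and the complex I subunits NDUFV2, NDUFA11 and NDUFB10 changed by -0.83, -0.82 and -0.68. UQCRFS1, the Rieske protein of complex III, rose by 0.97. In limma 0 of the 13 mitochondrially encoded mRNAs passed, with 2 at an unadjusted p under 0.05 and 2 that passed with the block. Over all genes 8320 of 17063 had such an unadjusted p without the block. Hypoxia and glycolysis genes rose in 12 of 35 and fell in 3, where 21.5% of all genes rose and 17.1% fell. They rose in 19 and fell in 4 without replicate 2 of both groups, and rose in 9 and fell in 0 without STM2457 replicate 3. The lactate exporter SLC16A3 stood at 5663, 4559 and 5182 in STM2457 libraries, against 719, 697 and 847 in DMSO libraries (log2 change 2.76 ± 0.13, adjusted p = 2.05e-05), and the glucose transporter SLC2A3 rose by 1.75. GAPDH, a glycolytic enzyme often used to normalize, fell, at 104214, 60506 and 102820.0 in STM2457 libraries, against 162947, 171932 and 177549 in DMSO libraries, a call lost without DMSO replicate 1, DMSO replicate 3 or STM2457 replicate 3.

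More extracellular matrix genes fell than rose. Of 32 glycoproteins and proteoglycans measured, 18 fell and 5 rose (median -0.69), where 17.1% of all genes fell and 21.5% rose. Of 29 collagens 9 fell and 2 rose (median -0.39). Under the block 14 collagens were lower and 4 higher, where 23.7% of all genes were lower and 25.8% higher. Versican (VCAN), a proteoglycan of glioma matrix, stood at 3528, 2405 and 3028 in STM2457 libraries, against 21270.0, 17588 and 19123 in DMSO libraries (log2 change -2.71 ± 0.16, adjusted p = 4.12e-05). Laminin LAMA4 stood at 9188, 9303 and 10724 in STM2457 libraries, against 45357, 63178 and 38172 in DMSO libraries (log2 change -2.30 ± 0.20). The collagens COL15A1 and COL9A1 fell (log2 change -3.22 and -3.38). Laminin LAMB3 and thrombospondin THBS1 rose by 2.11 and 1.71.

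Integrins and metalloproteinases moved in both directions. ITGA5, the fibronectin receptor subunit, stood at 8863, 14016 and 9948 in STM2457 libraries, against 2560.5, 3785 and 3345 in DMSO libraries (log2 change 1.75 ± 0.20), and ITGB3, of the vitronectin receptor, at 6823, 10026 and 6779 in STM2457 libraries, against 21088, 24803 and 17444 in DMSO libraries (log2 change -1.43 ± 0.20). Of 19 integrins 4 rose and 7 fell, where 21.5% of all genes rose and 17.1% fell. The collagenase MMP1 was listed at 0 in all 3 DMSO libraries, against 125, 68.3 and 354 in STM2457 libraries. TIMP2 rose by 1.71, while TIMP1 and TIMP3 fell (log2 change -0.91 and -0.82). Of 13 mesenchymal factors and cadherins, 4 rose and 5 fell, with SNAI2 and ZEB2 higher (1.42 and 1.07) and SNAI1 and ZEB1 lower (-1.69 and -0.67).

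Growth factor signalling genes changed in ligands, receptors and targets. Among 21 receptor tyrosine kinase genes and ligands, 4 rose and 8 fell, where 21.5% of all genes rose and 17.1% fell. FGFR1 stood at 2409, 2915 and 2513 in STM2457 libraries, against 14792, 18590.4 and 12374 in DMSO libraries (log2 change -2.53 ± 0.16), PDGFA, a ligand that drives glial progenitors, at 1405, 1023 and 1517 in STM2457 libraries, against 8835, 11321 and 7974 in DMSO libraries (log2 change -2.84 ± 0.18), and AXL at 3234, 3642 and 4048 in STM2457 libraries, against 8711, 6852 and 8809 in DMSO libraries (log2 change -1.15 ± 0.14). Of 23 genes that report ERK activity, 3 rose and 10 fell (median -0.49). SPRY4, a feedback inhibitor, stood at 4023, 3175 and 4820.3 in STM2457 libraries, against 23179, 36054 and 29521 in DMSO libraries (log2 change -2.88 ± 0.21), and the ETS factor ETV4 at 174, 257 and 242 in STM2457 libraries, against 1542, 2416 and 1663 in DMSO libraries (log2 change -3.05 ± 0.21). MYC was among the 3 risers (1.49).

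Insulin-like growth factor genes rose in 7 of 13 and fell in 2. IGFBP5 stood at 10893, 5659 and 6732 in STM2457 libraries, against 1887, 1492 and 1077 in DMSO libraries (log2 change 2.36 ± 0.27) and IGFBP3 at 302, 451 and 604 in STM2457 libraries, against 4364, 7062 and 4079 in DMSO libraries (log2 change -3.52 ± 0.28), binding proteins that moved in opposite directions. IGF1 was listed at 0 in all DMSO libraries, against 74.5, 49.2 and 50.2 in STM2457 libraries. In the TGF-beta and BMP list 10 of 31 rose and 8 fell. TGFB2 stood at 1692, 1175 and 1308 in STM2457 libraries, against 258, 246 and 255 in DMSO libraries (log2 change 2.44 ± 0.15, adjusted p = 5.19e-05), the inhibitory SMAD6 rose by 3.04, and the antagonist follistatin (FST) fell (log2 change -2.24). YAP targets rose in 8 of 22 and fell in 7, with LATS2, the kinase that restrains YAP, higher (2.11) and CCN2 lower (-0.88).

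The effect was set beside that in LN229, whose libraries are separate and were made with the same kit. LN229 grew without temozolomide and LN229-R with 50 µM of it, which cannot be told apart from the line. Of 16511 genes tested in both tables, 1 (0.00606%) differed in its change at an adjusted p of 0.05 in limma. The 651 genes at an unadjusted p under 0.05 are a share below 0.05 of those tested and are not read as differences. Log2 changes correlated at 0.889 across these genes, a description over genes that are not independent replicates. Of the genes changed in LN229-R, 86.8% changed in the same direction in LN229, and these made up 67.9% of the changes in LN229. In LN229 itself 8506 of 17107 genes (49.7%) changed. For 4605 of 6484 genes changed in LN229-R the 95% interval of the difference lay between -1 and 1 on the log2 scale. A difference that did not pass does not show that the lines responded alike.

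The gene that differed was RNA5-8SN2, a 5.8S ribosomal RNA gene with near-identical copies, which lies outside the rule for named genes and was chosen after its values were seen. It was listed at 0 in all 3 LN229-R STM2457 libraries, against 89.4, 360.4 and 78.4 in LN229-R DMSO libraries. In LN229 the order was turned, with 119, 138 and 105 in STM2457 libraries and 0 in all 3 DMSO libraries. It is 1 of the 2 among 156 genes, counted above, whose difference between the line names was opposite in STM2457 and DMSO libraries. Reads of such copies can be assigned to any of them, and the tables were normalized separately, so the value is uncertain. The part of the line names in it was not tested further.

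**Figure D5:**
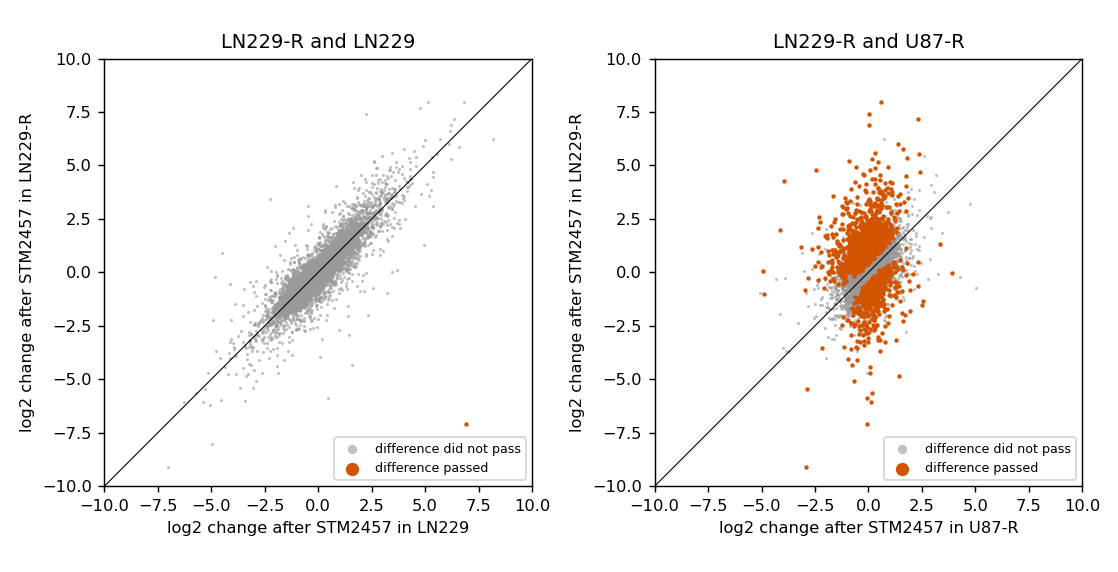
Log2 change after STM2457 in LN229-R (vertical) against that in LN229 (left, horizontal) and in U87-R (right, horizontal), 1 point per gene tested in both tables, with genes whose difference passed in orange and the line of equal change. The points follow the line in the left panel, where 1 gene passed, and spread along the vertical axis in the right panel, where 1982 passed.

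Against U87-R the effect differed in 1982 of 13759 genes (14.4%), 1307 with the higher change in LN229-R (9.5%) and 675 with the lower one (4.91%). With the replicate block, where like-numbered libraries deviated together in both lines, 3757 differed. Log2 changes correlated at 0.367 across genes. In U87-R itself 2373 of 16185 genes (14.7%) changed, fewer than in LN229-R. Of the genes changed in LN229-R, 21.6% changed in the same direction in U87-R, or 56.1% of the changes in U87-R. Whether or not they passed in U87-R, 76.5% of the genes changed in LN229-R had a log2 change of the same sign there. The 2 line families also differed in library kit and medium, which cannot be told apart from the line.

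NUPR1 changed by 7.96 in LN229-R and 0.59 in U87-R, a difference of 7.37 (95% interval 5.59 to 9.15; adjusted p = 9.94e-05). PRUNE2 changed by 4.94 and -0.57 (difference 5.50, 4.83 to 6.17), and C1S by 5.60 and 0.29 (difference 5.31, 4.24 to 6.37). NECAB2, FGF11 and FGF7 had differences of 6.88, 5.21 and 4.84. The crosslinking enzyme TGM2 changed by -3.28 in LN229-R and 0.78 in U87-R (difference -4.06, -4.70 to -3.42; adjusted p = 4e-06), and NRGN, ADAMTS4, MTSS1 and ABI3BP had differences of -3.68, -3.57, -3.43 and -3.28.

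Several lists differed between these lines. Of 18 class I presentation genes, 14 had the higher change in LN229-R, with medians of 0.99 in LN229-R and -0.45 in U87-R. Of 35 hypoxia and glycolysis genes 22 did (medians 0.25 and -0.84), of 27 NRF2 targets 18 (medians 1.02 and 0.10), of 53 lysosomal genes 23, with 2 lower (medians 0.75 and 0.21), and of 40 interferon genes 15 (medians 1.498 and 0.00), or 26 with the block. The interferon count was 7 without U87-R DMSO replicate 2, 22 without LN229-R STM2457 replicate 3 and 8 to 21 without 1 other library. Of 28 p53 targets, 9 had the lower change in LN229-R (5 rose and 8 fell in LN229-R, 8 rose and 0 fell in U87-R). Of 12 writers of m6A, 0 differed in limma, with 1 at an unadjusted p under 0.05 and 2 that differed under the block. Of 35 genes of G2 and M phase, 0 differed, with 1 at an unadjusted p under 0.05, while 24 had the lower change in LN229-R under the block. Over all 13759 genes, 3757 differed under the block, 2132 with the higher change in LN229-R and 1625 with the lower one. Without the block 3945 of them had an unadjusted p under 0.05.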

How the data were processed

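Polyadenylated RNA was sequenced from 6 LN229-R libraries, 3 given STM2457 and 3 given DMSO, and from the LN229 and U87-R libraries used for comparison. The submitters' processing notes name the build GRCh38 and the tools DESeq2, Salmon 1.4.0, STAR 2.7.11a and Trimmomatic 0.39. Their settings are not given in the sources used here. The deposited signal values are the authors' normalized counts per gene. A read's worth differed between genes, so whole reads were not recovered, no count model was used, and depth in reads is not given; sums were 26970874 to 28716587.

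Changes were computed as log2(normalized count + 1) with limma 3.58.1 (variance trend, R 4.3.3), STM2457 minus DMSO, on genes with a mean of at least 10, with Benjamini-Hochberg adjustment over all genes tested. Standard errors are from limma. Fold changes on this scale understate the change of low genes. The 3 treatment tables used were normalized separately, so the effects in the lines were compared through the difference of their changes in 1 model. Levels were set against each other across tables only to check the line names. Like-numbered libraries deviated together (correlations of 0.175, 0.321 and 0.102 in LN229-R, 0.174, 0.114 and 0.298 in U87-R). Unlike numbers gave -0.266 to 0.169 and -0.214 to 0.062, and DMSO replicate 3 of LN229-R lay closer to STM2457 replicate 1 than to its own number. The pairing is taken from the data, the labels giving only the numbers; the block was an alternative. In LN229 they did not all pass 0.1 (0.068, 0.09 and 0.099).

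Of 22452 genes listed, 20955 had a symbol in the table of gene names, and 19776 were in the GENCODE 29 annotation, which gave coordinates. Promoters came from RefSeq (GRCh38.p14). Named genes were those with the 15 highest and the 15 lowest log2 changes, given a call, a mean of at least 100 and groups that did not overlap (pseudogenes, antisense and readthrough genes, hosts of small RNAs and clone-based, LOC or LINC names left out), a fixed panel of 14 genes, up to 5 members of each list in each direction by adjusted p, and the 6 largest differences between lines in each direction. Hosts of small RNAs were recognised by name only, so H19 stayed in. Genes named beyond this rule (CTSD, LAMP1, NQO1, ISG15, TOP2A, markers below their call and the neighbours of MAG) were chosen after their values were seen. Members and lists were chosen with earlier results of these data known. The scripts were tested on simulated data. A few genes that these rules select are not reported here.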

Additional observations from a re-analysis of the deposited data

Results flagged for a closer look

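Results are given here because the change after STM2457 differed between LN229-R and another line by a test of the difference itself. Against LN229, 1 gene passed, RNA5-8SN2, with a fitted difference of -14.02 on the log2 scale (SE 0.70, adjusted p = 2.06e-06 in limma). It was listed at 0 in 1 group of each line, so the fitted size depends on the pseudocount.

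Against U87-R, 1982 genes passed. The largest positive differences, LN229-R minus U87-R on the log2 scale, were 7.37 for NUPR1, 6.88 for NECAB2, 5.50 for PRUNE2, 5.31 for C1S, 5.21 for FGF11 and 4.84 for FGF7. Among the largest negative ones were -4.06 for TGM2, -3.68 for NRGN, -3.57 for ADAMTS4, -3.43 for MTSS1 and -3.28 for ABI3BP. Library kit and medium cannot be told apart from the line in these differences.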

How the results depend on the processing

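Of 282 named genes, 275 passed, 225 of these kept their call in all 15 alternative settings and 0 reversed. Of the 50 that lost it in at least 1 setting, 17 lost it only when libraries were left out. The count of 6591 changed genes was 3521 (2251 higher, 1270 lower) at an adjusted p of 0.01 and 2841 (1747 higher, 1094 lower) with a log2 change of at least 1 added. Leaving out 1 library gave 4364 to 6425 changed genes and 1667 to 2849 lower genes. Equal upper quartiles gave 3351 higher and 3475 lower genes and moved the median of all genes to -0.08, so the split between directions depends on the scaling; under it the medians of the autophagy list and of the m6A erasers and readers were below 0. With the replicate block 8444 genes changed; it ended no call of a named gene, and TFEB gained one. The 1 gene that differed from LN229 became 2 with a pseudocount of 0.5, 4 with equal totals, 2 without the variance trend, 3 with the replicate block, 4 without replicate 2 of both LN229-R groups (chosen after seeing the data), and 1 to 4 when 1 library was left out. The 1982 genes that differed from U87-R became 3757 with the replicate block, 882 at an adjusted p of 0.01 and 1124 with a log2 difference of at least 1 added. The cause of these moves was not tested. With 3 libraries in each group and no counts, small changes of low genes are not detectable. With a mean of at least 50 no epithelial marker was left, so that list had no median.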
